A study of Mus musculus with 8 samples.

Results

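The D-type cyclins (Ccnd1, Ccnd2, Ccnd3), the E-type cyclins (Ccne1, Ccne2) and 5 inhibitors of cyclin-dependent kinases (Cdkn1a, Cdkn1b, Cdkn1c, Cdkn2a, Cdkn2c) were followed across 8 mouse expression arrays. They were taken as the non-control probes whose gene name in the scanner files was one of these 10 symbols. This gave 16 probes in 25 spots, of 55419 probes for 34652 genes in all. Expression was read on single-colour Agilent arrays, 1 for each of 8 groups. The sorted populations derived from the male embryonic stem (ES) line K/l-EB5, of 129/Ola background, which carries green fluorescent protein at Rax, a homeobox gene of the eye field and hypothalamus. These cells were neuralized and received the Wnt inhibitor IWR-1-Endo (Wi, 5 µM, at day 3), followed 12 h later by Activin A (10 ng/ml) or by SAG, a Hedgehog pathway agonist (100 nM). At 10 days in vitro they were trypsinized and sorted into RAX::GFP-positive and RAX::GFP-negative populations, giving 4 groups. The fifth culture, the Wi control, was E14Tg2A, another male 129/Ola ES line, which was given the inhibitor alone and for which no sort was named. Eye, cortex and diencephalon/hypothalamus were dissected at E12.5 from 3 embryos of the Sv129s6 strain, of mixed sex. No deletion or transgene other than the reporter was named for any group. The cultures were thus 1 line per arm, and the tissues held all cell types of the dissected piece.

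The cell cycle leaves G1 when D-type cyclins bound to Cdk4 or Cdk6, and then E-type cyclins bound to Cdk2, phosphorylate the retinoblastoma protein and free E2F factors, which drive the genes of DNA replication. Inhibitors of the Cip/Kip class (Cdkn1a or p21, Cdkn1b or p27, Cdkn1c or p57) act on Cdk2 complexes, and those of the INK4 class (Cdkn2a or p16, Cdkn2c or p18) bind Cdk4 and Cdk6. In the developing brain and retina, Ccnd1 and Ccnd2 are cyclins of dividing progenitors, while p27 and p57 are known for holding cells out of the cycle when they begin to differentiate.

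RNA from 3 sets of experiments had been combined for each array, so there was no replicate and no p-value could be had. A level is the log2 intensity of a probe minus the 75th percentile of its array, and levels are compared between arrays for 1 probe, never between probes. A gene was called higher or lower in a pair of arrays where the log2 difference was at least 1 (2-fold) and the brighter array was well above background. This rule judges size alone and tests nothing. The measurement error of a difference, from the scanner's error model, had a median of 0.2 over the members. It reflects how well an array was read, and says nothing of how cultures or embryos vary. In pooled samples, fewer cells expressing a gene and less RNA per cell cannot be told apart. Between 59.5% and 79.3% of the spots of an array were well above background, with the lowest share for activin RAX-negative and highest for activin RAX-positive cells. Both RAX-positive arrays lay in slide column 1 and both RAX-negative arrays in column 2, and gate and column therefore cannot be told apart. The Wi control was alone on a second slide, so slide, cell line and lack of a sort cannot be told apart from the control condition.

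Of the 10 members, 8 were well above background on all 8 arrays. Their levels had a median range of 2.7 over the arrays, against 1.5 over the 20578 genes measured on all arrays. Ccne2 was well above background on 5 arrays and Cdkn2a on 6. The plot of levels by array shows each member on its own scale.

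**Figure D1:**
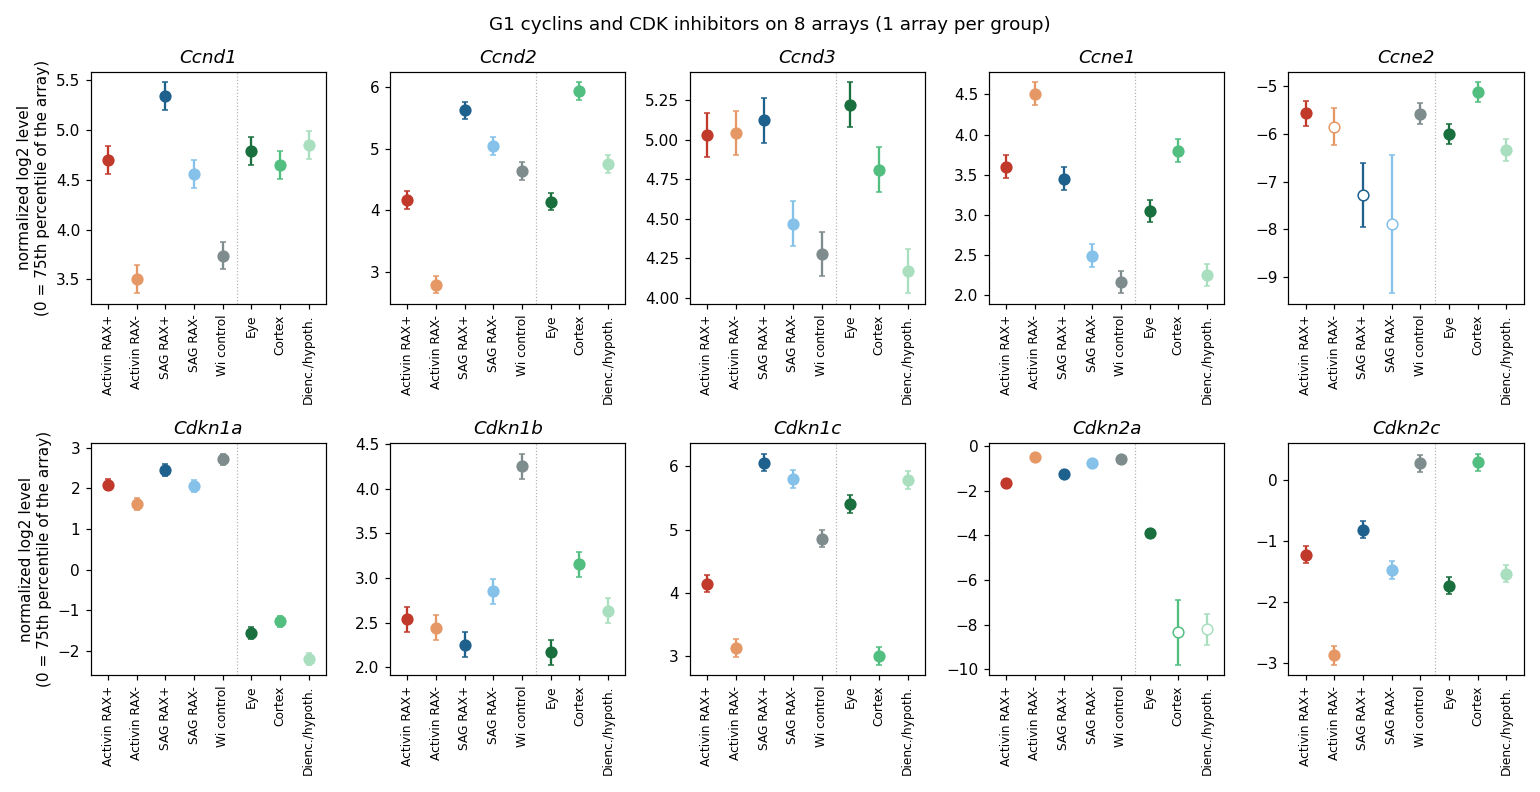
Normalized log2 level (y axis, 0 is the 75th percentile of the array) of the 10 members on 8 arrays (x axis), 1 panel per gene with its own y range. Points are single arrays, bars are the measurement error, open points were not well above background, and the dotted line separates 5 cultures from 3 tissues. Cdkn1a and Cdkn2a are higher in all 5 cultures than in all 3 tissues, and the other 8 members overlap.

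Ccnd1, the D-type cyclin of retinal and many other progenitors, was read at 4.70 in activin RAX-positive, 3.50 in activin RAX-negative, 5.34 in SAG RAX-positive, 4.56 in SAG RAX-negative cells and 3.74 in the Wi control. In eye, cortex and diencephalon/hypothalamus it was 4.79, 4.65 and 4.85. The 3 tissues were thus close to each other, less than 2 measurement errors apart from one to the next in order of level, while the cultures lay on both sides of them. Within each factor the RAX-positive cells were the higher ones, by 1.21 on the log2 scale (2.31-fold) after activin and by 0.78 (1.72-fold, not called) after SAG.

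Ccnd2, a D-type cyclin of cortical progenitors, had the largest range of the D-type cyclins (3.13, or 8.74-fold). Its level was 4.17 in activin RAX-positive, 2.80 in activin RAX-negative, 5.62 in SAG RAX-positive, 5.04 in SAG RAX-negative cells and 4.64 in the Wi control, and 4.14 in eye, 5.93 in cortex and 4.75 in diencephalon/hypothalamus. Cortex was the highest array, next to SAG RAX-positive cells, from which it differed by less than 2 measurement errors. Activin RAX-negative cells were the lowest. The gene has 1 probe, shown because the D-type cyclin differences with the largest size rest on it, at chr6:127098696-127098755 on the minus strand of mm9:
Ccnd2 probe: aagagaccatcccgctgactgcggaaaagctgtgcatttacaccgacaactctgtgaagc
The part of the gene that it covers was not annotated in the files. Of the 60 bases 31 were G or C (51.7%), and 2 of the 3 forward frames held no stop codon.

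Ccnd3, the third D-type cyclin, was the steadiest member, with 5.03 in activin RAX-positive, 5.04 in activin RAX-negative, 5.12 in SAG RAX-positive, 4.47 in SAG RAX-negative cells and 4.28 in the Wi control. Eye, cortex and diencephalon/hypothalamus had 5.22, 4.81 and 4.17. All 7 neighbouring pairs in the order of its levels differed by less than 2 measurement errors. Only the ends of that order, eye over diencephalon/hypothalamus, passed the rule of size (1.04 on the log2 scale, and 1.00 for its second probe). That difference was 0.85 relative to the median of all genes in the pair, under the size of a call.

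Ccne1, a cyclin that activates Cdk2 at the G1/S border, followed another order. It was read at 3.60 in activin RAX-positive, 4.51 in activin RAX-negative, 3.45 in SAG RAX-positive, 2.49 in SAG RAX-negative cells and 2.16 in the Wi control, and at 3.05, 3.80 and 2.25 in eye, cortex and diencephalon/hypothalamus. Activin RAX-negative cells, which had the lowest Ccnd1 and Ccnd2, had the highest Ccne1. The second Ccne1 probe, dimmer and also above background on all arrays, was likewise highest in activin RAX-negative cells (0.11) and lowest in the Wi control (-2.88).

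Ccne2 was dim on every array. Its level was -5.57 in activin RAX-positive, -5.85 in activin RAX-negative, -7.28 in SAG RAX-positive, -7.89 in SAG RAX-negative cells and -5.58 in the Wi control, and -6.00, -5.12 and -6.33 in eye, cortex and diencephalon/hypothalamus. The activin RAX-negative array and both SAG arrays were not well above background. Only 9 of the 60 bases of its probe were G or C. Differences of Ccne2 that involve those 3 arrays are bounds. Of the 7 comparisons with such an array, 5 changed sign under normexp, another background correction, 2 of them among the called ones.

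Cdkn1b, the p27 inhibitor, was read at 2.54 in activin RAX-positive, 2.44 in activin RAX-negative, 2.25 in SAG RAX-positive, 2.85 in SAG RAX-negative cells and 4.25 in the Wi control. Eye, cortex and diencephalon/hypothalamus had 2.17, 3.15 and 2.63. The Wi control stood above the 7 other arrays, among which neighbouring levels differed by less than 2 measurement errors. The second Cdkn1b probe, at lower intensity, did not follow this: the Wi control was at -2.47 on it, level with SAG RAX-negative cells at -2.47, and its lowest array was activin RAX-negative at -4.04.

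Cdkn1c, the p57 inhibitor, an imprinted gene, had a range of 3.04 (8.25-fold). Its level was 4.15 in activin RAX-positive, 3.13 in activin RAX-negative, 6.06 in SAG RAX-positive, 5.80 in SAG RAX-negative cells and 4.86 in the Wi control, and 5.40, 3.01 and 5.78 in eye, cortex and diencephalon/hypothalamus. Both SAG arrays, diencephalon/hypothalamus and eye were the 4 highest, and cortex and activin RAX-negative cells the lowest. Cortex, the array with the highest Ccnd2, had the lowest Cdkn1c.

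Cdkn2c, the p18 inhibitor, had levels of -1.22 in activin RAX-positive, -2.87 in activin RAX-negative, -0.81 in SAG RAX-positive, -1.47 in SAG RAX-negative cells and 0.28 in the Wi control. In eye, cortex and diencephalon/hypothalamus it was -1.73, 0.30 and -1.53. Cortex and the Wi control were highest and differed by less than 2 measurement errors, and activin RAX-negative cells were lowest.

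Cdkn1a, which encodes p21 and is a textbook target of p53, was read at 2.09 in activin RAX-positive, 1.61 in activin RAX-negative, 2.45 in SAG RAX-positive, 2.06 in SAG RAX-negative cells and 2.71 in the Wi control. It was at -1.55 in eye, -1.27 in cortex and -2.19 in diencephalon/hypothalamus. The 5 cultures and the 3 tissues did not overlap. The mean culture level was 14.5-fold above the mean tissue level, and the lowest culture, activin RAX-negative, was 7.37-fold above the highest tissue, cortex. This probe was spotted 10 times, and the standard deviation of its log2 signal among the spots of an array was 0.032 to 0.071 (8 spots for SAG RAX-positive cells). The 2 dimmer Cdkn1a probes separated the cultures in the same direction, at -2.96 to -1.21 in cultures against -7.11 to -5.93 in tissues, and at -4.49 to -2.86 in cultures against -7.09 to -6.72 in tissues, where some tissue arrays were not well above background. Among the cultures the probes did not order the arrays alike: the dimmest of them was lowest in the Wi control, where the brightest one was highest.

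Cdkn2a, the locus of the p16 inhibitor and of Arf, was read at -1.65 in activin RAX-positive, -0.47 in activin RAX-negative, -1.26 in SAG RAX-positive, -0.74 in SAG RAX-negative cells and -0.58 in the Wi control. It was at -3.88 in eye, and at -8.34 in cortex and -8.21 in diencephalon/hypothalamus, where the probe was not well above background. The cultures lay at least 30.6-fold above the tissues on average, with the 2 dim tissues set no lower than the dimmest signal well above background on their arrays. The size of this difference depended on the processing: it was 13.5-fold in the authors' values and 8.53-fold under normexp, both without that limit. The lowest culture, activin RAX-positive, was 4.68-fold above eye. The second Cdkn2a probe was well above background on 3 of 8 arrays, all of them cultures. Neither probe was annotated as belonging to the p16 or the Arf transcript, so the transcripts cannot be told apart here.

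Cdkn1a and Cdkn2a were thus the 2 of 10 members with cultures and tissues apart, both with cultures higher, and 0 members had cultures lower. Over the 31170 genes well above background on at least 1 array, 14.4% had cultures and tissues apart in either direction, 10.1% with cultures higher and 4.24% with cultures lower. The members' count was therefore near that of all genes. The count was again 2 without the Wi control and, in an alternative chosen after seeing the data, without the activin RAX-positive array. Cultures and tissues also differed in strain, sex and preparation, which cannot be told apart from culture itself. Blood markers summed to 0.57 to 1.62 in cultures, against 305.12 to 548.55 in tissues (linear, 1 is the 75th percentile of the array). All cultures were below all tissues for 5 of 6 blood, 6 of 8 mesenchyme and 4 of 5 endothelium markers, and above them for 4 of 10 pluripotency and 2 of 10 neural progenitor markers. Their part in the result was not tested.

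In a list of 12 other p53 target genes, chosen with earlier results of these data known, 10 had all cultures above all tissues. The list had 0 with all cultures below. Over all genes these shares were 10.1% and 4.24%. They are given for scale only, because the list was not chosen independently of these data. Ccng1, encoding cyclin G1, was at 3.16 to 4.07 in cultures against 0.98 to 1.15 in tissues, 5.79-fold on average. Phlda3 was 5.23-fold, Zmat3 4.77-fold and Bbc3, which encodes the apoptosis inducer PUMA, 4.49-fold higher in cultures. Mdm2, the ubiquitin ligase that degrades p53, was also apart, at 4.16 to 4.36 in cultures against 3.46 to 3.91 in tissues, but by 1.37-fold. Gdf15 and Pmaip1 overlapped. Among the 10, the lowest culture was between 1.14-fold (Trp53inp1) and 4.05-fold (Ccng1) above the highest tissue. Btg2 and Mdm2 were also barely apart, at 1.17-fold and 1.18-fold. The count of 10 was 7 to 11 under the other settings. The summed level of the list was 141.43 to 174.61 in cultures against 56.05 to 71.63 in tissues. No member of the S-phase list (16 genes) or of the mitotic list (12 genes) had cultures and tissues apart. The part of p53 in the Cdkn1a difference was not tested.

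**Figure D2:**
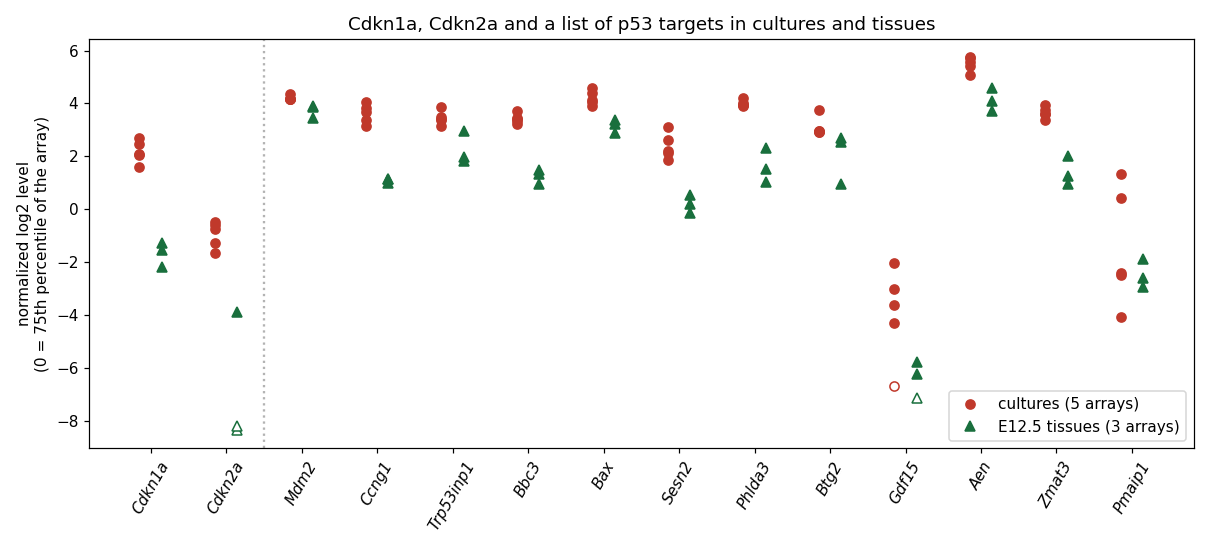
Normalized log2 level (y axis) of Cdkn1a, Cdkn2a and 12 p53 target genes (x axis) in 5 cultures (circles) and 3 E12.5 tissues (triangles), each point 1 array and open points not well above background. For Cdkn1a, Cdkn2a and 10 of the 12 targets every culture lies above every tissue, and for Gdf15 and Pmaip1 they overlap.

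Promoter windows of 250 bases before to 50 after a transcript start, from RefSeq on GRCm38.p6, were held for 6 of the 10 members in 10 windows. Those of Cdkn1a and Cdkn2a are printed because these members separated cultures from tissues. Capitals mark matches to the E2F words and to a CATG pattern given after the sequences, other motifs are left in lower case, and positions count from the transcript start.
Cdkn1a upstream start, chr17:29090729-29091028, plus strand: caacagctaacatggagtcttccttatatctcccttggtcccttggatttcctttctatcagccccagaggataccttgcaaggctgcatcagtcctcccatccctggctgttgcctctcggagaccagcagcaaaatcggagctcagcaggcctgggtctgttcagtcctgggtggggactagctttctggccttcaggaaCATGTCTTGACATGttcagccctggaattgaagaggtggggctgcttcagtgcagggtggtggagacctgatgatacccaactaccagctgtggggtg
Cdkn1a downstream start, chr17:29093519-29093818, plus strand: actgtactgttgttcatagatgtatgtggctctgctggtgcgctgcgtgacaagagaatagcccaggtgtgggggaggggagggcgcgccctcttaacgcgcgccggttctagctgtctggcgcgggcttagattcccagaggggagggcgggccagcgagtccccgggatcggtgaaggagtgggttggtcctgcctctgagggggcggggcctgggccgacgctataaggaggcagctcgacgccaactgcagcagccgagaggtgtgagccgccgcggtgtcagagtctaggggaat
Cdkn2a upstream start, chr4:89294570-89294869, minus strand: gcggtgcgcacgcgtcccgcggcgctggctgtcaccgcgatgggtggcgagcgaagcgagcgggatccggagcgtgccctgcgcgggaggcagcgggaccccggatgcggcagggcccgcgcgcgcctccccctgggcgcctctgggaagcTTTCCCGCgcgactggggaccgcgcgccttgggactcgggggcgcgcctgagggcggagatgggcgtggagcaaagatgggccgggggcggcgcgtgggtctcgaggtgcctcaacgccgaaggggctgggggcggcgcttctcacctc
Cdkn2a downstream start, chr4:89282143-89282442, minus strand: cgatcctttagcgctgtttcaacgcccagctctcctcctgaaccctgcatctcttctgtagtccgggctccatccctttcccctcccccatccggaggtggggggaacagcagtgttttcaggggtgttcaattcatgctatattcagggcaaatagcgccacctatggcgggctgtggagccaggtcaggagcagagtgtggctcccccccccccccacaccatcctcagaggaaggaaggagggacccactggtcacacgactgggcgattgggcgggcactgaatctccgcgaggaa
In mouse the upstream start of Cdkn2a gives the Arf transcript and the downstream one the p16 transcript. In all, 5 motifs were searched on both strands, with no overlap between the ones marked. E2F words (TTTGGCGC, TTTCGCGC, TTTCCCGC or TTTGCCGC) were in 1 of the 10 windows, as TTTCCCGC at -99 in the upstream window of Cdkn2a, against 2.3% of all 32817 windows. The whole p53 consensus, a pair of adjacent half-sites with no mismatch, was in 0 of the 10 windows and in 3 of all windows (0.01%). A looser pattern, CATG followed by any 6 bases and CATG again, was then searched after the letters of the Cdkn1a window had been read and the strict search had given none there. It was in 1 of the 10 windows, at -48 in the upstream window of Cdkn1a, and in 0.71% of all windows. Since the pattern was chosen from that window, its match there is a description of the letters only. GGGCGG was in 8 of the 10 windows, against 35.6% of all windows, and TATAAA in 0 of the 10, against 13.6%. The upstream Cdkn2a window held 45 CpG, the downstream one 12, and the Cdkn1a windows 2 and 23, where the median over all windows was 7.

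The gate comparison asks how RAX-positive and RAX-negative cells of the same cultures differed. After activin, 4 members were called higher in RAX-positive cells and 1 lower, 5 of 10, where 29.2% of all genes were called, 22.9% higher and 6.31% lower. Ccnd1 (1.21), Ccnd2 (1.37), Cdkn1c (1.03) and Cdkn2c (1.65, or 3.14-fold) were the higher ones on the log2 scale. Cdkn2a was lower (-1.18, and at least 2.14-fold on its second probe, which was not well above background in RAX-positive cells), and Ccne1 was at -0.91, under the size of a call on its first probe and at -1.11 on its second. With this scaling 2 of 5 cyclins and 2 of 5 inhibitors were higher. Under median scaling 2 members were higher and 2 lower, with Ccnd1 at 0.89 and Cdkn1c at 0.71 under the size and Ccne1 at -1.23 past it. Under normexp and in the authors' values 4 were higher and 0 lower, with Cdkn2a at -0.92 and -0.83. The median of all genes was itself 0.19, and relative to it Cdkn1c was at 0.83, no longer past the size, while Ccne1 was at -1.11. Of the other INK4 genes, Cdkn2b, which encodes p15 and is known as a target of TGF-beta signalling, was 6.81-fold lower (-2.77) and Cdkn2d, which encodes p19, was at 0.33. Cdk6, a partner of the D-type cyclins, was 4.34-fold lower (-2.12), at the low levels of -4.52 against -2.40. It was the 1 called of 7 G1 kinases and their activators, whose median was -0.07. Cdk4, the other partner, was at 6.32 on both arrays (0.01).

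The S-phase and mitotic lists had 0 genes called in this pair, with medians of -0.10 and 0.01, beside 0.19 over all genes. Several marker lists moved with the gate. Of 10 pluripotency markers 8 were lower in RAX-positive cells, Pou5f1 by 176.0-fold, with a summed level of 3.42 against 6.79 on the log2 scale. All 7 detected mesoderm and endoderm markers were lower (linear sums of 1.60 against 21.42), and 6 of 8 mesenchyme markers (5.14 against 15.55). Of the neuron markers 4 were lower and 1 higher of 12 (29.46 against 65.04). Most of that gap came from Stmn2, at 2.84 against 5.29 on the log2 scale. The median of the neuron list was 0.09, beside 0.19 over all genes. Of 10 neural progenitor markers 4 were higher and 1 lower (171.55 against 91.79). Their part in the cyclin and inhibitor differences was not tested.

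After SAG, 0 of 10 members were called in either direction, where 17.9% of all genes were called, 7.51% higher and 10.3% lower. The nearest to the size were Ccne1 at 0.96 and Ccnd1 at 0.78, followed by Cdkn2c at 0.66, Ccnd3 at 0.65 and Ccnd2 at 0.59. Cdkn1b (-0.60) and Cdkn2a (-0.52) were the 2 with lower values in RAX-positive cells. Thus Ccnd1, Ccnd2, Cdkn1a, Cdkn1c, Cdkn2a and Cdkn2c had the same sign as after activin and Ccne1 the opposite one. Ccnd3 and Cdkn1b also changed sign, but after activin they were at -0.01 and 0.10, within the measurement error of 0.2. Ccne2 was not well above background on either SAG array. No spread between cultures was available for testing whether the gate differences differ between factors. E2f7, an E2F repressor (1.06), was the 1 of 10 E2F and DP factors past the size. Cenpe, a mitotic kinesin (1.04), was the 1 of 12 mitotic genes, and 0 of 16 S-phase genes were called. The medians of these lists were 0.52, 0.49 and 0.53, beside 0.08 over all genes. The neuron list had 7 of 12 lower in RAX-positive cells (88.74 against 205.05), and all 8 mesenchyme markers were lower (1.20 against 12.43). Neural progenitor markers were higher for 3 of 10 and lower for 1, Fabp7, with near equal sums (234.29 against 237.25). Mesoderm and endoderm markers were lower for 2 of the 5 detected, Foxa2 by 20.6-fold (0.76 against 9.92). Of 10 pluripotency markers 6 were lower and 1 higher, Zfp42 27.0-fold lower, with linear sums of 6.74 against 8.84. Their part was not tested.

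**Figure D3:**
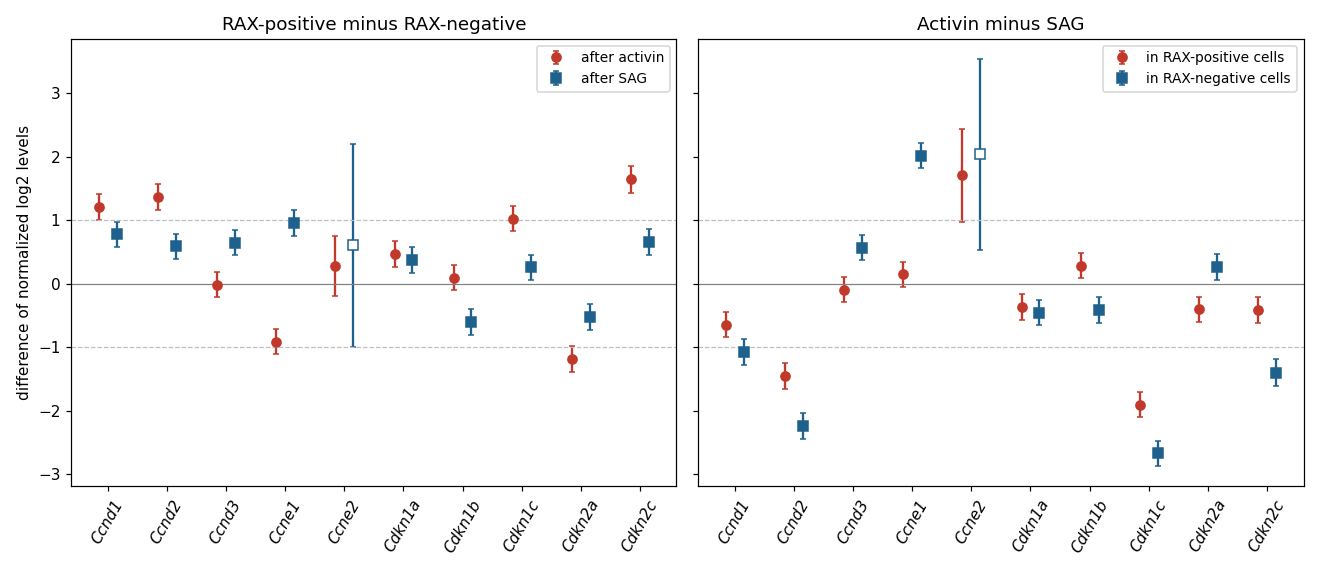
Difference of normalized log2 levels (y axis) for the 10 members (x axis), RAX-positive minus RAX-negative cells on the left (after activin and after SAG) and activin minus SAG on the right (in RAX-positive and in RAX-negative cells). Bars are the measurement error, the open points mark pairs where neither array was well above background, and dashed lines mark the 2-fold size. Cdkn1c and Ccnd2 are lower after activin in both gates, and Ccne1 differs by gate in opposite directions after activin and SAG.

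The comparison of activin with SAG was made within each gate, on the same 4 arrays. In RAX-positive cells, Ccnd2 (-1.45) and Cdkn1c (-1.90, or 3.74-fold) were lower after activin, and Ccne2 was at least 3.05-fold higher, with SAG RAX-positive cells not well above background. That Ccne2 difference was under the size with quantile normalization (0.93), in the authors' values (0.30) and under normexp (-0.20). With it, 3 of 10 members were called, where 24.7% of all genes were called, 17.6% higher and 7.16% lower. Ccnd1 was at -0.64, and the other members were within 0.41 of 0 in either direction. In RAX-negative cells 5 of 10 were called, where 33.7% of all genes were, 14% higher and 19.7% lower. Ccne2 was not well above background on either array, so only 9 members could be called, and the shares also leave out such genes. Ccnd1 (-1.07), Ccnd2 (-2.24, or 4.71-fold), Cdkn1c (-2.67, or 6.37-fold) and Cdkn2c (-1.40) were lower after activin, and Ccne1 was higher by 2.02 (4.05-fold, and 1.83 on its second probe). A D-type cyclin and a Cip/Kip inhibitor, Ccnd2 and Cdkn1c, were thus lower after activin in both gates.

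In RAX-negative cells 6 of 16 S-phase genes were higher after activin and 0 lower, with a median of 0.94 beside 0.04 over all genes. In RAX-positive cells 1 was higher, with a median of 0.29 beside 0.24. Neuron markers were lower after activin in both gates, 10 of 12 in RAX-positive cells (29.46 against 88.74) and 10 of 12 in RAX-negative cells (65.04 against 205.05). Pluripotency markers were higher for 8 of 10 in activin RAX-negative cells (110.70 against 8.84). Their part in the member differences was not tested.

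The 4 sorted populations were each set against the Wi control, and these comparisons share that array. Calls were made for 4, 6, 6 and 3 of 10 members in activin RAX-positive, activin RAX-negative, SAG RAX-positive and SAG RAX-negative cells, where 43.5%, 40.0%, 40.2% and 34.6% of all genes were called. In the same order, 28.8%, 18.1%, 21.0% and 17.2% of all genes were called higher and 14.7%, 21.9%, 19.2% and 17.4% lower. Cdkn1b was below the Wi control in all 4 populations, by -1.71, -1.81, -2.0 and -1.40 on the log2 scale in that order, and Cdkn2c by -1.50, -3.15, -1.09 and -1.75. The second Cdkn1b probe gave -0.69, -1.58, -0.22 and -0.01, so that 1 of the 4 was past the size on it. Ccne1 was above the Wi control in 3 of the 4, by 1.44 and 2.35 in the activin populations and by 1.29 in SAG RAX-positive cells, and was at 0.33 in SAG RAX-negative cells. Its second probe was past the size in all 4, at 1.89, 3.00, 1.88 and 1.17 in the order of populations used above.

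Inhibitors were called lower more than higher in these pairs. Of 5 inhibitors, 3 were lower in activin RAX-positive, 4 in activin RAX-negative, 2 in SAG RAX-positive and 2 in SAG RAX-negative cells, and the 1 that was higher was Cdkn1c in SAG RAX-positive cells (1.20). The median of the inhibitors was -1.08, -1.73, -0.68 and -0.65, and that of the detected cyclins 0.75, -0.24, 0.98 and 0.33, beside 0.35, 0.01, 0.08 and 0.03 over all genes. Of the calls in activin RAX-positive cells, that of Cdkn2a (-1.08) was under the size with quantile normalization (-0.98), under normexp (-0.94) and in the authors' values (-0.85). Ccnd1 was called higher in SAG RAX-positive cells (1.61, or 3.05-fold) and Ccnd2 lower in activin RAX-negative cells (-1.84). Cdkn1a was lower in activin RAX-negative cells (-1.10), and there its dimmest probe was at 0.92. Ccne2 was counted as lower in both SAG populations, at least 3.02-fold in RAX-positive cells, while in RAX-negative cells its bound was only 1.02-fold. The difference in SAG RAX-positive cells was not past the size in the authors' values (-0.81) or under normexp (-0.08).

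The S-phase list had 14, 13, 8 and 2 of 16 genes above the Wi control in the same order of populations, and 0 below. Its medians were 1.43, 1.58, 0.97 and 0.58. The mitotic list had fewer, with 4, 3, 2 and 0 of 12 higher and medians of 0.80, 0.85, 0.60 and 0.06. In each population 1 mitotic gene was lower, Aurkb, at -1.76, -1.94, -2.68 and -3.52. E2F and DP factors had 6, 5, 5 and 3 of 10 higher and 0 lower. The neuron list had 11, 9, 7 and 0 of 12 lower, with a summed level of 29.46, 65.04, 88.74 and 205.05 against 240.51 in the Wi control. Pluripotency markers summed to 3.42, 6.79, 2.75 and 3.14 on the log2 scale, against 7.34 in the Wi control. In the Wi control that sum was mostly Dppa5a, a germ and stem cell gene, at 6.86. Without it the sums were 3.39, 6.54, 2.72 and 2.64, against 5.50 in the Wi control, so that activin RAX-negative cells were then the highest. Activin RAX-negative cells had 3 of the 10 markers above the Wi control and 3 below it. The Wi control is the one culture for which no sort was named. Their part in the cyclin and inhibitor differences was not tested.

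**Figure D4:**
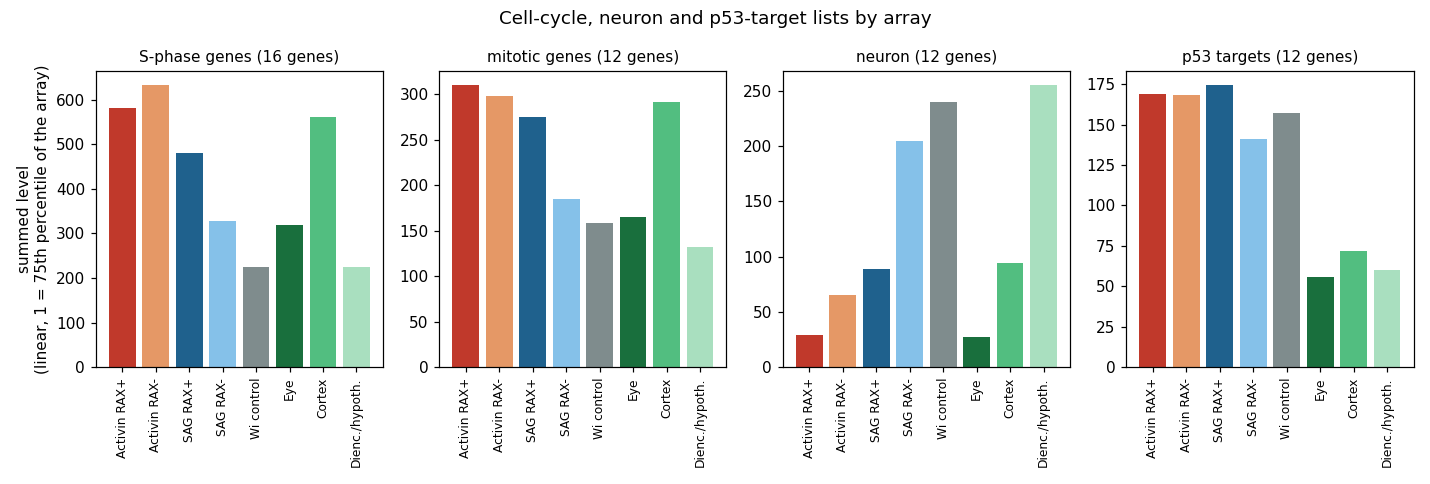
Summed linear level (y axis, 1 is the 75th percentile of the array) of the S-phase, mitotic, neuron and p53-target lists on each of 8 arrays (x axis), 1 panel per list with bars from 0. The S-phase sum is lowest in diencephalon/hypothalamus and the Wi control, where the neuron sum is highest, and the p53-target sum is higher in the 5 cultures than in the 3 tissues.

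Among the tissues, eye was compared with cortex and with diencephalon/hypothalamus, and cortex with diencephalon/hypothalamus. Cortex over diencephalon/hypothalamus gave 5 calls of 10, where 23.5% of all genes were called, 8.43% higher and 15% lower. Cdkn2a was not well above background on either array, so only 9 members could be called, and the shares also leave out such genes. Ccnd2 (1.17), Ccne1 (1.54), Ccne2 (1.22) and Cdkn2c (1.84, or 3.58-fold) were higher in cortex and Cdkn1c was lower (-2.77, or 6.80-fold). All 16 S-phase genes and 11 of 12 mitotic genes were also higher in cortex, with summed levels of 561.12 against 225.05 and 291.89 against 132.44. Quantile normalization left 11 of the S-phase and 2 of the mitotic genes past the size. Neuron markers were lower in cortex for 8 of 12 (94.35 against 255.58), and their part was not tested.

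Eye over cortex gave 4 calls, where 26.5% of all genes were called, 19.2% higher and 7.26% lower. Cdkn1c was higher in eye (2.39, or 5.24-fold), as was Cdkn2a (at least 5.30-fold, but 3.29-fold in the authors' values, 3.02-fold as the mean over probes and 2.35-fold under normexp), while Ccnd2 (-1.79) and Cdkn2c (-2.04) were lower. Cdkn1b was at -0.98, and at -1.09 relative to the median of all genes, but at 0.33 on its second probe. Eye over diencephalon/hypothalamus gave 2 calls, where 20.8% of all genes were called, 12.2% higher and 8.61% lower. They were Ccnd3 (1.04) and Cdkn2a (at least 11.9-fold, but 4.66-fold as the mean over probes, 3.13-fold in the authors' values and 2.40-fold under normexp). The second Cdkn2a probe was not well above background in any tissue. Eye held lens markers at a summed level of 487.06 and pigment epithelium markers at 128.79, against 0.28 and 16.36 in cortex, and mesenchyme markers at 100.07 against 42.52. The pigment epithelium sum in cortex was mostly Dct, at 3.98 on the log2 scale, and the other markers of that list were at -1.14 or lower there. Neuron markers summed to 27.62 in eye, against 94.35 in cortex and 255.58 in diencephalon/hypothalamus, and were lower in eye for 8 and 11 of 12. S-phase genes were lower in eye than in cortex for 3 of 16, and E2F and DP factors for 4 of 10. The part of these differences was not tested.

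Each gene's level was also centred on its mean over the 8 arrays, so that cyclins and inhibitors could be set side by side on each array. Over the members measured on all arrays, the 4 cyclins had a median of 0.23 in activin RAX-positive, -0.37 in activin RAX-negative, 0.59 in SAG RAX-positive, -0.13 in SAG RAX-negative cells and -0.63 in the Wi control. The 4 inhibitors had -0.16, -0.99, 0.80, 0.55 and 1.44 in the same order. In eye, cortex and diencephalon/hypothalamus the cyclins were at 0.08, 0.38 and -0.24 and the inhibitors at -0.61, -0.70 and -0.28. The Wi control had the highest inhibitor and the lowest cyclin median, and SAG RAX-positive cells were above 0 for both classes. Activin RAX-negative cells were below 0 for both, although Ccne1 was highest there. With Ccne2 included, which was not well above background on that array, their cyclin median was 0.28, on the other side of 0. The inhibitor medians use the brightest probe of each gene. The second Cdkn1b probe did not set the Wi control apart, and the dimmest Cdkn1a probe was lower there than in the other cultures. Cdkn1a, higher in all cultures than in all tissues, was among the 4 inhibitors.

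The 3 genes of most similar pattern over the 8 arrays were sought among 16028 genes for 1 member of each class. By range alone these would be Ccnd2, Ccne2 and Cdkn2a, but the low ends of Ccne2 and Cdkn2a were not well above background. The members were therefore taken, in a choice made after seeing the data, as those with the largest range among the ones measured on all arrays. They were Ccnd2 (range 3.13), Ccne1 (2.35) and Cdkn1a (4.91). The genes were Trps1 (Pearson r = 0.960), Btg1 (0.952) and Soga1 (0.949) for Ccnd2. For Ccne1 they were Eif4g1 (0.996), Nolc1 (0.993) and Gm5067 (0.993), and for Cdkn1a they were Ddit4 (0.990), Bnip3 (0.989) and the unnamed probe A_55_P2108275 (0.988). These are descriptions over 8 arrays that share slides and scaling. Cdkn1a had all cultures above all tissues, as did 3157 of 31170 genes. A high r with it can therefore come from that split alone.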

How the data were processed

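Cy3-labelled RNA of 8 groups was hybridized to Agilent mouse arrays, 1 per group. The deposited scanner tables hold the intensity of each spot, background-subtracted and detrended by the authors' scanner software (Agilent Feature Extraction 10.7.3.1, per the file headers) and not scaled between arrays, beside flags for outlier and well-above-background spots. The submitters' processing notes name Agilent Feature Extraction 9.1 and limma. The deposited value table holds log2 values normalized between arrays by the authors, with column medians of 6.36 to 6.40 and a correlation of 0.977 to 0.991 with the scanner log2 signals, so it was read as uncentred log2 expression. Its background step is not given in the sources used here. Probe positions are on mm9, per the file headers.

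From the intensity of non-control, non-outlier spots, log2 minus the 75th percentile of the array was computed (Python 3.11.15, pandas 2.3.3, numpy 2.4.6), and repeated spots were averaged. RefSeq accessions named 27927 probes, and the files' own gene names the other 27492. Where a gene had several probes, the one brightest on average stood for it. The number of arrays limits precision, and no test was made. All 10 members are named. Of the other lists up to 2 genes per gate comparison were named, those with the largest difference. Cdk4, Dppa5a and p53 targets outside that rule were named after their values were seen. Members and lists were chosen with earlier results of these data known. Alternatives were median scaling, quantile normalization, normexp with offset 50 (limma 3.58.1 in R 4.3.3), the authors' values, the mean over probes, a filter on both arrays and a 1.5-fold size.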

Additional observations from a re-analysis of the deposited data

Results flagged for a closer look

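The gate difference of Ccne1 was of opposite sign after the 2 factors. RAX-positive minus RAX-negative cells gave -0.91 on the log2 scale after activin and 0.96 after SAG, and the second probe gave -1.11 and 0.72. It was picked out because each value was more than 2 measurement errors from 0 and they pointed opposite ways. A first version of that criterion, which asked for both values to be past the 2-fold size, picked out no member. The looser one was set after the Ccne1 values had been seen. Neither value on the first probe passed the 2-fold size, but under median scaling both did, at -1.23 and 1.11. With 1 array per group the difference between factors was not tested.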

How the results depend on the processing

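Of 43 called member differences, the sign held for 43 under median scaling, quantile normalization, the authors' values and the mean over probes, and for 41 under normexp, and 36 to 41 were still called. Both sign changes were of Ccne2 under normexp, to -0.20 for activin over SAG in RAX-positive cells and to 0.28 for SAG RAX-negative cells over the Wi control, and the cause was not tested. Calls of the SAG gate comparison numbered 1 under median scaling and 6 at 1.5-fold, against 0. At 1.5-fold there were 8 against 4 for activin RAX-positive cells over the Wi control and 6 against 3 for SAG RAX-negative cells over it. Eye over cortex had 7 under median scaling and 7 at 1.5-fold, against 4. Eye over diencephalon/hypothalamus had 1 under median scaling, quantile normalization, the authors' values and the filter on both arrays, and 5 at 1.5-fold, against 2. The count of members with cultures and tissues apart was 3 under normexp, with Ccne2 added, and otherwise 2. Relative to the median of all genes, 41 of the 43 calls held and 3 were added.

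Over all genes, calls depended more on the processing: normexp gave 1900 for the activin gate comparison against 8445, and over the 11 comparisons the lowest count under another setting was 1.62 to 4.44 times below the main one. The share of calls that were higher also moved. It was 78.4% for the activin gate, against 66.9% under median scaling, 61.0% under quantile normalization, 48.2% in the authors' values and 37.1% under normexp, and 42.1% for the SAG gate against 53.9% under median scaling and 25.8% under normexp. For activin over SAG it was 71.1% in RAX-positive cells against 54.8% (quantile), 48.4% (authors) and 43.6% (normexp), and 41.5% in RAX-negative cells against 60.3% (median). Over the Wi control it was 66.2% in activin RAX-positive cells against 52.6% (quantile), 46.8% (authors) and 45.3% (normexp), and 45.2% in activin RAX-negative cells against 55.8% (median). Eye over cortex had 72.6% against 36.8% (median), 60.9% (quantile), 56.7% (authors) and 61.1% (normexp), eye over diencephalon/hypothalamus 58.7% against 48.5% (authors), and cortex over diencephalon/hypothalamus 35.9% against 64.7% (median) and 47.6% (normexp). No paired analysis was possible because each group had 1 array. Ccne2, and Cdkn2a in cortex and diencephalon/hypothalamus, were limited by signal near background.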
